A study of Mus musculus with 6 samples.

Results

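The genes described here are 7 genes that mark tissue macrophages, the phagocytes that settle in organs, as read in whole hearts of mouse embryos at E11.5. They are *Lyz1*, *Lyz2*, *Mrc1*, *Siglec1*, *Emr1*, *Aif1* and *F13a1*. They were chosen by name from the 1577 genes that the authors listed as changed, with the listed differences already known, so their differences between the groups are a description and carry no test. All 7 have a row in the deposited table. Hearts of 3 control and 3 hypomorphic embryos were compared by RNA-seq, all on a C57BL/6 background and all from the hypomorphic Nkx2-5 line, the controls being siblings labelled WT, for wild type. Nkx2-5 is a homeobox transcription factor of the heart muscle lineage, and hypomorphic embryos make less of it. The study names *Nkx2-5-IRES-Cre* among its lines, with *Nkx2-5-gfp* as another, but the allele combination of the sequenced embryos is not given in the sources used here. *Nkx2-5* itself is not among the listed genes, so its reduction could not be checked here. The deposited values are group means over the 3 hearts, so the spread between hearts is unknown and no p-value between the groups could be computed. The samples held whole-heart RNA, in which fewer macrophages and less RNA of these genes per macrophage cannot be told apart.

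Macrophages of the early embryo arise from yolk sac progenitors, enter organs with the blood and take up dying cells and debris. They carry receptors for sugars and sialic acids on their surface, and they secrete lysozyme, an enzyme that cuts the wall of bacteria. In the heart they lie beneath the epicardium and among the growing vessels and valves. Of the genes described here, *Lyz1* and *Lyz2* encode lysozymes, *Mrc1* the mannose receptor CD206, *Siglec1* the sialic acid receptor CD169, and *Emr1* the adhesion receptor F4/80. *Aif1* encodes the actin-binding protein IBA1, and *F13a1* the catalytic subunit of the clotting factor XIII, which crosslinks proteins and is also made by megakaryocytes.

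All 7 macrophage genes were lower in hypomorphic hearts, by between 1.54-fold (*Emr1*) and 12-fold (*Lyz1*) on the authors' normalized log2 values. They fell into 2 ranges, with *Lyz1*, *Lyz2* and *Siglec1* lower by at least 6.04-fold and the other 4 by at most 1.96-fold. Among all listed genes 58.1% were lower. At a fold of at least 2, 3 of the 7 genes were lower, against 17.9% of the listed genes. From raw group means with no scaling between the groups, all 7 were lower by at least 1.5-fold, where 58.3% of the listed genes were. The median log2 difference was -0.97 for the 7 genes, -0.81 for the 917 genes listed as lower and -0.63 for all 1577. The choice of the genes used these differences, so nothing is read from the counts.

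**Figure D1:**
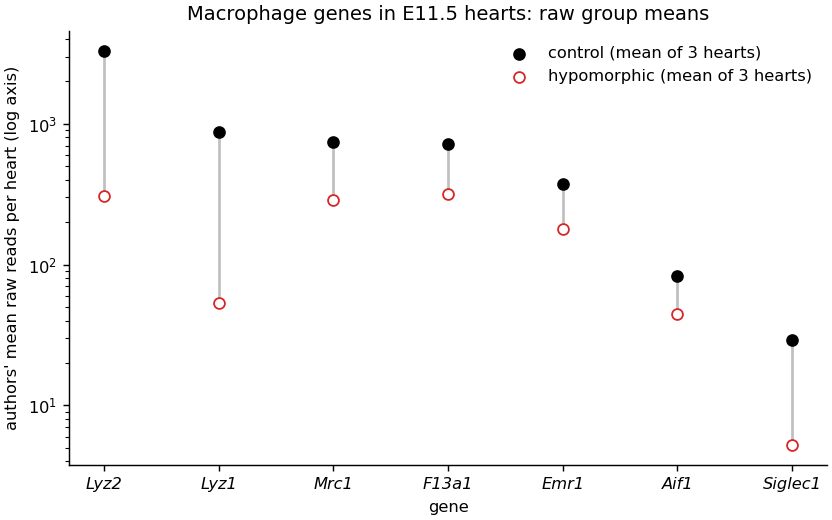
Authors' mean raw reads per heart (log axis) for the 7 macrophage genes in control (filled) and hypomorphic (open) hearts, each point a mean over 3 hearts with no error available. Every open point lies below its filled point, and the gaps are widest for *Lyz1* (878 to 53.0) and *Lyz2* (3289 to 305).

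*Lyz2*, the lysozyme gene used as a general mark of macrophages and granulocytes, was the most abundant of the 7, its authors' mean being 3289 raw reads per control heart against 305 per hypomorphic heart. The normalized values were 1.45 and -1.51, a log2 difference of -2.96 or 7.80-fold. *Lyz1*, known from the Paneth cells of the intestine, had 878 and 53.0 raw reads. Its normalized values were 1.62 and -1.96, a log2 difference of -3.59 or 12-fold. The ratio of raw means between hypomorphic and control hearts was 0.0928 for *Lyz2* (95% exact binomial interval 0.0866 to 0.0993) and 0.0603 for *Lyz1* (0.0511 to 0.0709). These intervals treat the estimated reads summed over 3 hearts as counts and cover counting error only, not the differences between hearts. The lysozyme genes together went from 4167 to 358 raw reads, and their share of the reads of the 7 genes was 68.1% in control and 30.0% in hypomorphic hearts.

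*Lyz1* and *Lyz2* are neighbours on mouse chromosome 10 of mm9, on the minus strand, with *Lyz2* from 116714390 to 116719377 and *Lyz1* from 116724852 to 116729924, 5474 bases apart. Both coding sequences are 447 bases long and differ at 22 bases, an identity of 95.1%. The first 240 coding bases of each transcript in the GENCODE M1 annotation are shown here, since they hold 17 of these differences. A read can be given to its gene by bases that differ, and the transcripts also differ outside the coding part. Capitals mark the bases that differ.

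Lyz1: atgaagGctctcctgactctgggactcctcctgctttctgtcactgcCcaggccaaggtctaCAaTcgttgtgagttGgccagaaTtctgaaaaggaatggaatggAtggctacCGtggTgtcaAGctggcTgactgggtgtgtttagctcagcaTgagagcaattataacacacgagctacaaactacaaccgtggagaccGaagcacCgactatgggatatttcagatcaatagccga

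Lyz2: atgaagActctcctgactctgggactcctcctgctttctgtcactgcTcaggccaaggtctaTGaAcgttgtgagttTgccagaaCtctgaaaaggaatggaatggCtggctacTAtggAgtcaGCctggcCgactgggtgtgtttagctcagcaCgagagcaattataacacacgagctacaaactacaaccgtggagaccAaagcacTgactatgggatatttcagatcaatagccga

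The whole transcripts, coding part included, have 1212 identical bases of 1263 aligned (96.0%). Of all windows of 50 bases in the *Lyz1* transcript, 16.0% occur unchanged in *Lyz2*, and 63.0% match it with at most 2 mismatches. For windows of 36 bases these shares were 28.5% and 73.6%, and for 75 bases 6.22% and 44.6%. The read length and the treatment of reads that fit both genes are not given in the sources used here. *Lyz1* took 21.1% of the lysozyme reads in control and 14.8% in hypomorphic hearts, and the division of reads between the paralogs is uncertain to the extent of these shared windows. The sum of both genes does not depend on that division, except for reads fitting both that were left out or counted for each. The sum was lower by a raw ratio of 0.0859. In the other 5 genes, none of the 50-base windows of the longest transcript occurred in a protein-coding transcript of another gene.

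**Figure D2:**
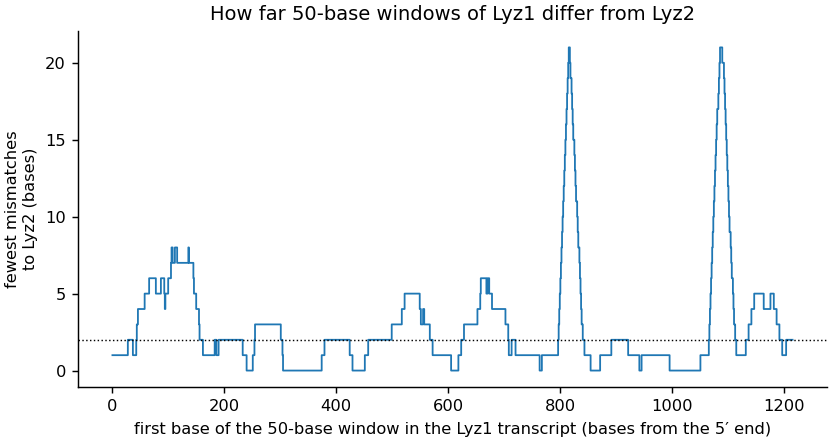
Fewest mismatches (bases) between each 50-base window of the *Lyz1* transcript and any window of *Lyz2*, against the first base of the window. The dotted line marks 2 mismatches, and 63.0% of the windows lie on or under it.

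The surface receptors were lower to different extents. *Mrc1*, which binds and internalizes mannose-bearing glycoproteins, lies on chromosome 2 of mm9 from 14151041 to 14253684, on the plus strand. Its raw means were 743 reads (control) and 287 (hypomorphic), a normalized log2 difference of -0.97 or 1.96-fold. The microRNA gene *Mir511* lies within its span on the same strand. *Emr1*, the gene of the classical mouse macrophage surface antigen, lies on chromosome 17 from 57498109 to 57622952, also on the plus strand. It had 374 and 180 raw reads, a log2 difference of -0.62 or 1.54-fold, close to the authors' threshold of 1.5-fold. Its raw ratio was 0.481 (exact binomial interval 0.433 to 0.533), and that of *Mrc1* 0.387 (0.357 to 0.418).

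*Siglec1*, which binds sialic acid on other cells and on pathogens, lies on chromosome 2 from 130894956 to 130912501, on the minus strand. It had the fewest reads of the 7 genes, 29.2 per control and 5.22 per hypomorphic heart, which sum to about 88 and 16 reads over the 3 hearts of each group. The normalized log2 difference was -2.60 or 6.04-fold. The raw ratio of 0.179 had the widest counting interval of the 7 genes relative to its value, from 0.0996 to 0.312. By counting error alone, the size of its fall was thus known less well than that of the lysozyme genes. The spread between hearts is unknown for all of them.

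*Aif1* encodes an intracellular protein that takes part in actin bundling and phagocytosis. It lies on chromosome 17 from 35307936 to 35313013, on the minus strand. Its raw means were 83.3 reads (control) and 44.3 (hypomorphic), a log2 difference of -0.89 or 1.85-fold, with a raw ratio of 0.532 (exact binomial interval 0.428 to 0.659). *F13a1* lies on chromosome 13 from 36959047 to 37142113, on the minus strand. It had 720 and 318 raw reads, a log2 difference of -0.74 or 1.67-fold, with a raw ratio of 0.442 (0.409 to 0.477). The counting interval of the raw ratio lay under 1 for each of the 7 genes. The genes were chosen with their falls known and the ratios carry no scaling between the groups, so nothing is read from this. The intervals of *Mrc1* and *F13a1*, of *F13a1* and *Emr1*, of *F13a1* and *Aif1* and of *Emr1* and *Aif1* overlapped.

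The drop was thus uneven over the list. The summed raw means of the 7 genes were 6116 in control and 1193 in hypomorphic hearts, a ratio of 0.195 (95% exact binomial interval 0.188 to 0.202). Without *Lyz1* and *Lyz2* the sums were 1949 and 835, a ratio of 0.428. Among the 917 genes listed as lower, *Lyz1* ranked 4, *Lyz2* ranked 8 and *Siglec1* ranked 13 by the size of the fall. *Mrc1* ranked 299, *Aif1* 368, *F13a1* 569 and *Emr1* 817, spread through the rest of the list.

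**Figure D3:**
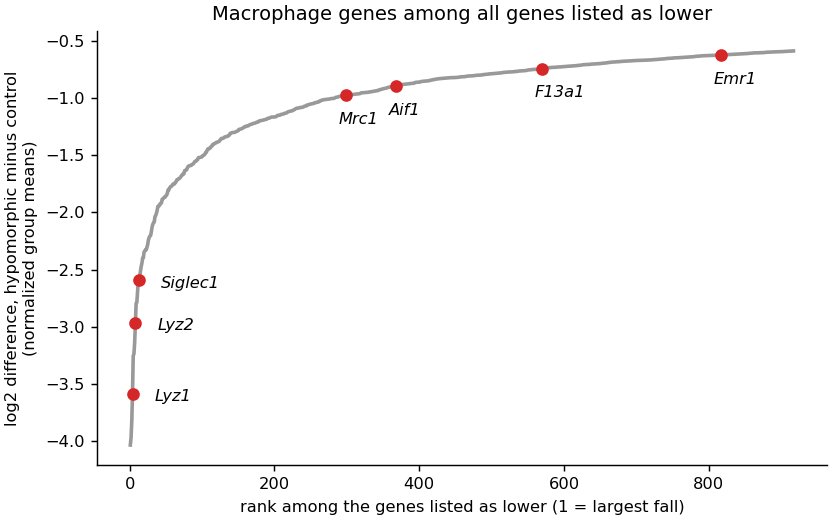
Log2 difference between hypomorphic and control hearts (normalized group means) for the 917 genes listed as lower, ordered by the size of the fall (grey), with the 7 macrophage genes in red. *Lyz1*, *Lyz2* and *Siglec1* stand at the steep end of the curve at ranks 4, 8 and 13, and the other 4 between ranks 299 and 817.

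Levels of different genes were compared per length, as raw reads per kb of the longest annotated transcript. In control hearts *Lyz2* was highest with 2505 reads per kb, followed by *Lyz1* with 695. *F13a1* (186 reads per kb), *Mrc1* (139), *Emr1* (115) and *Aif1* (95.2) came next, and *Siglec1* was lowest with 4.57. In hypomorphic hearts *Lyz2* was again highest with 232 reads per kb, but *Lyz1*, at 41.9, stood below *F13a1* (82.0), *Emr1* (55.4), *Mrc1* (53.7) and *Aif1* (50.7). *Siglec1* stayed lowest with 0.817. By this length both lysozyme genes lay above the receptors in control hearts, and *Lyz2* alone of them did in hypomorphic hearts. The spread between hearts is unknown, so it cannot be said which neighbours in this order differ. With the median transcript length in place of the longest, *Emr1* moved from 115 to 398 reads per kb in control hearts and so above *F13a1* (243) and *Mrc1*, and from 55.4 to 191 in hypomorphic hearts, near the 232 of *Lyz2*.

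The normalized differences and the raw ratios did not stand in the same relation for all 7 genes. Over the listed genes, the normalized log2 difference exceeded the log2 ratio of raw means by a median of 0.47 (quartiles 0.44 and 0.50). *Lyz1* (0.46), *Lyz2* (0.47), *F13a1* (0.44), *Emr1* (0.44) and *Mrc1* (0.40) lay near this value. *Aif1* lay at 0.020 and *Siglec1* at -0.11, values below which only 1.08% and 0.380% of the listed genes fell. Among the 282 genes listed as lower with 10 to 50 control reads, as for *Siglec1*, the median was 0.41 (quartiles 0.31 and 0.46). Among the 201 with 50 to 150 control reads, as for *Aif1*, it was 0.45 (0.41 and 0.48). The normalized values of *Aif1* and *Siglec1* therefore give a larger fall, relative to their raw means, than is usual for genes with as many reads. Why these genes differ was not tested.

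The families of the 7 genes were looked up in lists written with earlier results of these data known. The families hold 32 other genes, of which 5 are among the listed genes, 2 lower and 3 higher. No other lysozyme gene of the list was among them. *Ly75*, the mannose receptor relative of dendritic cells, was listed as higher, with 463 and 517 raw reads and a log2 difference of 0.61. *Mag*, a Siglec of myelin, was listed as higher from few reads, 10.3 and 23.0, with a log2 difference of 1.52. Of the transglutaminases, *Tgm3* was lower (22 and 7 reads, -1.11) and *Epb4.2*, an inactive relative in the red cell membrane, was higher (9280 and 12570 reads, 1.09). *Eltd1*, an adhesion receptor of endothelial cells related to *Emr1*, was lower (1244 and 546 reads, -0.70). *Ly75* and *Epb4.2* stayed under 1.5-fold from raw means without scaling, and *Ly75* turned to lower when raw means were scaled to the total of the listed genes. With the median ratio over listed genes, 0 of the 2 lower family genes kept a fold of 1.5.

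Other macrophage genes were then taken from 5 lists of 95 genes in all, without the 7. Of these, 13 were among the listed genes, 9 lower and 4 higher, with a median log2 difference of -0.65 against -0.63 over all listed genes. Of the uptake receptors, 4 of 20 were listed and all 4 were lower. *Msr1*, a scavenger receptor for modified lipoproteins, had 224 raw reads per control and 70.8 per hypomorphic heart (log2 difference -1.23). *Timd4*, a phosphatidylserine receptor of resident macrophages, had 23.3 and 6.67 reads (-1.33). *Lyve1*, a hyaluronan receptor of resident macrophages and lymphatic endothelium, had 515 and 223 reads (-0.75), and *Clec7a*, the beta-glucan receptor, had 89.5 and 47.1 (-0.60). *Clec7a* fell under 1.5-fold when raw means were scaled by the median factor of the table, and with the median ratio over listed genes *Timd4* alone of the 4 stayed lower by 1.5-fold and *Clec7a* turned to higher.

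Of the lineage factors and growth factor receptors, 2 of 16 were listed, 1 lower and 1 higher. *Csf2rb*, the shared receptor subunit for GM-CSF, IL-3 and IL-5, was the higher one, with 4018 and 6157 raw reads and a log2 difference of 1.25. Of the complement, Fc receptor and surface genes, 1 of 22 was listed, *Tlr4*, the receptor for lipopolysaccharide, with 632 and 291 reads (-0.65). Of the chemokines and their receptors, 4 of 18 were listed, 3 lower and 1 higher. *Ccl6* (49.3 and 15.0 reads, -1.08) and *Ccr1* (116 and 53.7 reads, -0.66) were among the lower ones, and *Ccl3* was higher from few reads (9.71 and 14.3, 1.11). Of the phagosome, lysosome and oxidase genes, 2 of 19 were listed and both were higher. They were *Ncf4*, an oxidase subunit (1244 and 1396 reads, 0.78), and *Slc40a1*, the iron exporter ferroportin (2801 and 3095 reads, 0.62). From raw means without scaling *Csf2rb* alone of these 4 higher genes kept a fold of at least 1.5, and all 9 lower genes kept it. With the median ratio over listed genes, a scaling described with the 7 genes further on, 2 of the 9 lower genes and all 4 higher genes kept it.

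The defining macrophage markers were only partly listed. Of 14 such markers, 5 were among the listed genes, all of them among the 7 described here. *Csf1r*, *Cd68*, *Cx3cr1*, *Cd14*, *C1qa*, *C1qb*, *C1qc*, *Ptprc* and *Spi1* were not among the listed genes, and their levels were not analysed here. Since a gene enters the table only past the authors' test and a fold of 1.5, a smaller fall or none in these markers could not be seen. Of 17 pan-leukocyte genes, 2 were listed, both lower. They were *Cd53* (252 and 121 reads, -0.59) and *Cd48* (28.5 and 15.4 reads, -0.60), near the threshold as *Emr1* was.

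Markers of other blood cell types, some of which express some of the 7 genes, were read in the same way. Among all listed genes 58.1% were lower, so nothing is read from counts of a few listed genes per cell type, here or below. Of 17 granulocyte genes, which go with lysozyme in the adult, 2 were listed and both were lower. They were *Ctsg*, the protease cathepsin G (24.8 and 4 reads, -2.47), and *Ltf*, lactoferrin (19.2 and 5.67 reads, -1.50). Their summed raw means were 44.0 in control and 9.67 in hypomorphic hearts. Of 16 megakaryocyte and platelet genes, which go with *F13a1*, 2 were listed and both were lower. *Ppbp*, a platelet chemokine, had 2218 and 951 reads (-0.74), and *Treml1*, a platelet granule receptor, had 759 and 320 (-0.72). Of 16 monocyte and dendritic cell genes, 5 were listed and 4 were lower, among them *H2-Ab1* of MHC class II (612 and 229 reads, -1.0), *Cd74* (49.4 and 19.7, -0.90), *Flt3* (26.0 and 11.7, -0.78) and *Ciita* (24.3 and 11.2, -0.70). *Plac8* was higher (326 and 399 reads, 0.78), but under 1.5-fold without scaling. Of 12 mast cell, basophil and eosinophil genes, *Cpa3* (49.0 and 18.1 reads, -1.21) and *Hdc* (448 and 210, -0.63) were listed, both lower. Of the 16 lymphoid genes chosen, *Ubash3a* alone was listed, as higher (82.8 and 822 reads, 3.89). Listed lymphoid genes outside the 16 were not counted, such as *Zap70*, which was lower (39.3 and 13 reads, -1.19). With the median ratio over listed genes, both granulocyte genes stayed lower by at least 1.5-fold, and 0 of the lower pan-leukocyte, megakaryocyte, monocyte and mast cell genes did, with *Cd53* and *Cd48* turned to higher. The part of these cell types in the fall of the 7 genes was not tested.

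Red cell genes moved in the opposite direction. Of 24 erythroid genes 22 were listed, 21 of them higher, with a median log2 difference of 1.10 and raw means that summed to about 5781920 reads per control heart and 8535030 per hypomorphic heart. Without scaling 9 of them passed 1.5-fold as higher, and with the total of the listed genes 3 did. *Hbb-bh1*, an embryonic globin gene, had the largest rise (log2 difference 1.67), and *Tspo2* was the one listed as lower (-1.58). None of the 17 genes chosen as endothelial and endocardial was listed. Listed endothelial genes outside the 17 were not counted, such as *Eltd1*, which was lower (-0.70). Of 19 cardiomyocyte genes 3 were listed, *Nppa* (-0.66), *Pln* (-0.90) and *Myl7* (0.63), each with group means between 22582 and 199161 raw reads, among the high values of the table, as the tissue label of heart says. Of 16 epicardial and fibroblast genes *Msln* (-1.87) and *Lum* (-1.05) were listed. Of 18 liver and yolk sac genes 4 were listed and all 4 were lower, *Apob* (156 and 24.0 reads, -2.11), *Ahsg* (62.1 and 19.0, -1.42), *Apoa2* (176 and 64.3, -0.93) and *Apoa1* (103 and 22.3, -0.80). With the median ratio over listed genes, 3 liver and yolk sac genes and 1 epicardial or fibroblast gene stayed lower by at least 1.5-fold. Of the lower cardiomyocyte and erythroid genes 0 did. The part of red cells and of non-cardiac tissue in the fall of the 7 genes was not tested.

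**Figure D4:**
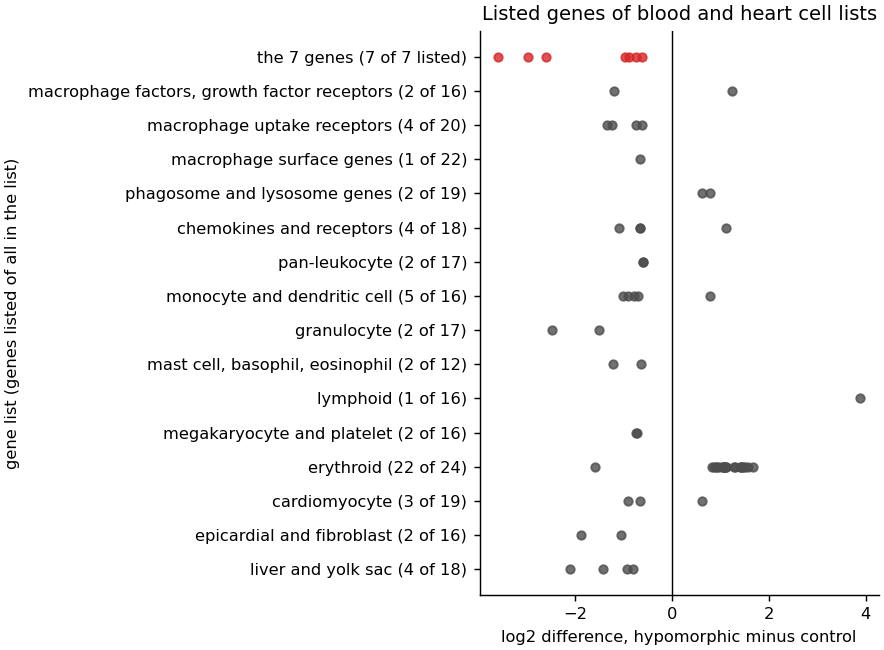
Log2 difference between hypomorphic and control hearts (normalized group means) for each listed gene of the cell type lists, with the 7 macrophage genes in red and the number of genes listed of all in the list in brackets. All 7 lie left of 0, as do 9 of 13 other macrophage genes, and 21 of 22 erythroid genes lie right of it.

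The direction of the 7 genes was read under 5 scalings of the raw means besides the authors' normalized values. *Lyz1*, *Lyz2* and *Siglec1* stayed lower by at least 1.5-fold under all 5, with *Siglec1* between -2.85 and -1.40 on the log2 scale. The smaller falls depended on the factor between the groups. With the median ratio over listed genes, which multiplies hypomorphic values by 2.13 and so centres a list that is mostly lower, *Mrc1* lay at -0.28 and *F13a1* at -0.091, while *Emr1* (0.031) and *Aif1* (0.18) turned to higher. With the median factor of the table, 1.38, *Aif1* lay at -0.44, under the threshold.

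**Figure D5:**
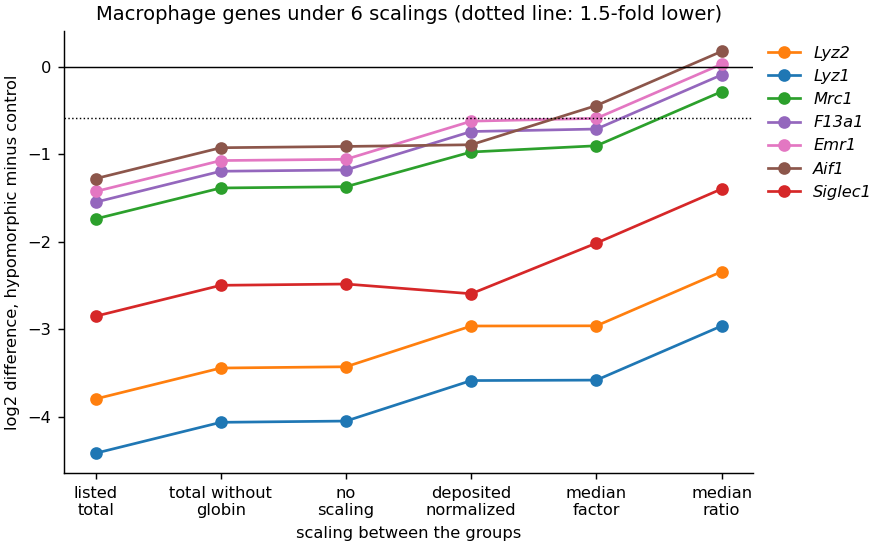
Log2 difference between hypomorphic and control hearts for the 7 macrophage genes under the authors' normalized values and 5 scalings of the raw group means, ordered by the factor. The 3 lowest lines, *Lyz1*, *Lyz2* and *Siglec1*, stay under the dotted line of 1.5-fold throughout, and *Emr1* (0.031) and *Aif1* (0.18) end above 0 at the median ratio.

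The authors' table attaches annotation terms to the genes. Extracellular region was attached to *Lyz1*, *Lyz2*, *Siglec1* and *F13a1*, and plasma membrane to *Mrc1*, *Siglec1*, *Aif1* and *Emr1*. Endocytosis was attached to *Mrc1* and *Siglec1* among 17 listed genes with the term, of which 9 were lower. Defense response to bacterium was attached to *Lyz1* and *Lyz2* among 10, of which 9 were lower. The shares lower were 52.9% for endocytosis and 90.0% for defense response to bacterium, against 58.1% of all listed genes. Both counts include the macrophage genes named with the term, which were chosen with their falls known. No test of these terms was run, so nothing is read from the counts. Lysozyme activity was attached to *Lyz1* and *Lyz2* alone.

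Promoters were read for 5 of the 7 genes from RefSeq (GRCm38.p6), as 250 bases before and 50 from the transcription start, and each was found once in mm9. *Siglec1* and *Emr1* had no entry. GAGGAA, a core of sites for PU.1, the transcription factor of the macrophage lineage, was searched on both strands and lies in 28.3% of 32851 promoters. It was found in *Mrc1*, *F13a1* and *Aif1*. TNAAGTG, the core of NKX2-5 sites, was searched likewise and lies in 3790 of them. It was found in *Lyz1*, *Lyz2* and *Aif1*. The letters of the motifs do not overlap in any of the 5 promoters. The upstream 250 bases of *Lyz1* (chr10:116729925-116730174, minus strand) and *Lyz2* (chr10:116719329-116719578, minus strand) are shown because they belong to the largest falls and share the match at the same place. Capitals mark TCAAGTG, whose first base lies 130 bases before the start in both.

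Lyz1: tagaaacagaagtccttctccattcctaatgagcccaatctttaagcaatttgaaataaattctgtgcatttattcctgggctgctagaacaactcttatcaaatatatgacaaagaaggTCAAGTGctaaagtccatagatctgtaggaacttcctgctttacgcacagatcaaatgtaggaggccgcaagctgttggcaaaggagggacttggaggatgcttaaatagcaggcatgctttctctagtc

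Lyz2: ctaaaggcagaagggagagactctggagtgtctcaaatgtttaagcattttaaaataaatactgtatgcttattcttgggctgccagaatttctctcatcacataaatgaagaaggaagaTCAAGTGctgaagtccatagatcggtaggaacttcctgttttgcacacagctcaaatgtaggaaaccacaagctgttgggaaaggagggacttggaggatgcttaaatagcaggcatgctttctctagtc

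The upstream sequences are alike over 200 of 248 aligned bases (80.6%), so that a match in one is not independent of a match in the other. *Aif1* (chr17:35312998-35313247, minus strand) is shown as the one promoter of the 5 with both motifs, in capitals, TNAAGTG as its reverse complement CACTTGA and GAGGAA as TTCCTC. The starts of these matches lie 117 and 7 bases before the transcription start.

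Aif1: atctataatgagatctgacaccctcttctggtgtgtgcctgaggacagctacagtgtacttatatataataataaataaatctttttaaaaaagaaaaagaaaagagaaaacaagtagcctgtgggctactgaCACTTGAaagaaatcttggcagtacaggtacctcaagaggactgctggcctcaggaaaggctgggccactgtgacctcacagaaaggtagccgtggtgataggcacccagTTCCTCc

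*Mrc1* has 3 matches to GAGGAA, at 180, 167 and 35 bases before its start, all on the other strand. *F13a1*, with 2 annotated starts, has matches 66 bases before and at base 18 after the upstream start, and at base 15 after the other. These are matches of letters only, and binding at them was not analysed here.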

How the data were processed

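Total RNA of 3 control and 3 hypomorphic E11.5 hearts was made into TruSeq libraries and sequenced by the authors on a Genome Analyzer IIx. Per the labels and methods, CASAVA 1.4 and TopHat (mm9) were used, and the authors counted RefSeq genes in Avadis NGS. The deposited raw values are the authors' mean estimated counts per group, and the deposited normalized values are on a log2 scale, also 1 per group, whose method is not given in the sources used here. The table keeps genes past the authors' AC test with a fold of at least 1.5. Its fold change and direction columns hold the authors' comparison and were not used. The log2 difference is the normalized hypomorphic minus the normalized control value.

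The design would have used edgeR or limma on values per heart. The table has none, so no test was run, and depth per heart is unknown. Of group means under 1000 reads, 78.6% were multiples of 1/300 (tolerance 0.02 after scaling), so intervals used 3 times the mean, rounded. Positions and transcripts came from GENCODE M1 (mm9). The 7 genes and all lists were chosen with earlier results of these data known. Named genes are the 7, every listed gene of the family and macrophage lists, and of other lists the largest rise and fall or, where at most 6 are listed, all. *Zap70* and genes of the immune terms were named besides. The values of 2 genes of the macrophage lists are not reported here. Alternatives were 5 scalings, a 2-fold threshold, a minimum of 50 reads, sums without some genes and another transcript length. The calculation of log2 differences and scaling factors was tested on simulated group means, and the other steps were not. Tools were Biopython 1.88, scipy 1.17.1, pandas 2.3.3, numpy 2.4.6 and matplotlib 3.10.9 under Python 3.11.15.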

Additional observations from a re-analysis of the deposited data

How the results depend on the processing

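No paired analysis was possible because hearts were averaged within each group before deposit. Hence edgeR, DESeq2, limma, pseudocounts and leaving out a replicate were not run, and how far the falls exceed the differences between hearts is unknown.

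Of 35 values for the 7 genes under other scalings, 30 stayed lower by at least 1.5-fold, 3 stayed lower under that threshold and 2 turned to higher, *Aif1* at 0.18 and *Emr1* at 0.031, both with the median ratio over listed genes. That scaling centres on listed genes, most of which are lower. With it the median log2 difference of the 7 genes was -0.28, against -0.97, and 3 genes rather than 7 passed the threshold. A 2-fold threshold also left 3. The total of the listed genes, the total without globin genes and no scaling use factors of 0.775, 0.990 and 1. Under these the 7 genes, already past 1.5-fold from raw means, could not come closer to no change. The median factor is taken from the authors' normalized values, and both totals rest on listed genes. The ratio of summed raw means, 0.195, was 0.428 without *Lyz1* and *Lyz2*, 0.168 without *Mrc1*, 0.162 without *F13a1* and 0.176 without *Emr1*. It was 0.151 with the total of the listed genes, 0.270 with the median factor and 0.414 with the median ratio. Reads per kb in control hearts moved with the median transcript length to 243 for *F13a1* and 398 for *Emr1*. *Siglec1* does not reach 50 raw reads. Scalings of the other lists were added after the values were seen. Which factor is right was not tested.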

Other observations

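Genes of the immune response were read through the terms that the authors' table attaches to them, chosen after the values were seen. Innate immune response was attached to 13 listed genes, none of them among the 7 macrophage genes though *Tlr4* and *Clec7a* are in the macrophage lists, and all 13 were lower in hypomorphic hearts, with a median log2 difference of -0.74. They include *Mx2* (88.8 raw reads per control and 20.1 per hypomorphic heart, log2 difference -1.73), *Irgm1* (834 and 271, -1.13), *Ddx58* (1078 and 397, -0.98) and *Bst2* (984 and 461, -0.62), which are genes of the interferon response, and the receptors *Tlr12* (-1.44), *Tlr1* (-1.24) and *Tlr4* (-0.65). The 13 stayed lower by at least 1.5-fold without scaling, 12 did with the median factor of the table and 2 with the median ratio over listed genes.

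Immune response was attached to 24 listed genes, 19 lower and 5 higher. Genes of MHC class I were among the lower ones, with *H2-K1* at 1052 and 430 raw reads (log2 difference -0.82) and *H2-Q10*, from few reads, at 23.3 and 4.76 (-1.92). The 5 higher genes were *Osm* (1.28), *Ccl3* (1.11), *Prg4* (0.79), *Tinagl1* (0.69) and *Tnfsf10* (0.65), of which *Osm* alone passed 1.5-fold without scaling. Inflammatory response was attached to 15, of which 12 were lower, and 11 of these with the median factor. With the median ratio over listed genes, 2 genes of immune response and 1 of inflammatory response stayed lower by at least 1.5-fold. Among all listed genes 58.1% were lower, and no test of these terms was run.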
